A study of Sus scrofa with 70 samples.

Results

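miR-202 was examined as the entries whose name begins with ssc-miR-202 in the table of miRNA abundance. That rule gave 2 entries, ssc-miR-202-5p and ssc-miR-202-3p, of 743 miRNA entries in all, of which 444 carried the name of a known pig miRNA. The entries were chosen by their RPM (reads scaled to the same total of miRNA reads in every library) in the testis against the other glands, so their levels by gland are described here without a test. The small RNA libraries came from 5 glands of boars 12 months old, the testis and epididymis and the accessory bulbourethral, prostate and vesicular glands. The boars belonged to 2 breeds, the Banna mini-pig inbred line (BMI), which was bred from the other by continuous inbreeding, and the non-inbred Diannan small-ear pig (DSE). Each of the 10 groups of breed and gland held 3 small RNA libraries and 3 RNA-seq libraries, and 1 Iso-seq library of full-length transcripts. The labels give no treatment and do not say which libraries came from the same boar.

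A miRNA is cut from an RNA hairpin, and its 5p and 3p arms are the strands from the left and right sides of that hairpin. Bases 2 to 8 of an arm, the seed, pair with target mRNAs and largely decide which mRNAs are repressed. miR-202 is known as a miRNA of the gonads. In the mouse testis it has been found in Sertoli cells, the somatic cells that nurse the germ cells, and in germ cells, and it has been placed downstream of the sex-determining factor SOX9.

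The sequences of the arms are shown because no other pig miRNA in RefSeq was found with the seed of either arm. They are the pig sequences of RefSeq on Sscrofa11.1, written 5′ to 3′ with the seed in capitals, and let-7a is given beside them for comparison with the 3p arm.
miR-202-5p: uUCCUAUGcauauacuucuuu
miR-202-3p: aGAGGUGUaggcaugggaa
let-7a: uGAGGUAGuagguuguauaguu
The 5p arm is 21 nt long and lies at chr14:141207181-141207201 on the minus strand, and the 3p arm is 19 nt long and lies at chr14:141207147-141207165. Neither arm shared bases 2 to 8, or bases 2 to 7, with any other of the 369 mature miRNA names in RefSeq. The 3p arm opens like let-7, the large family with the seed shown for let-7a. Over bases 2 to 8 it had 5 of 7 bases in common with let-7a, and counted from the 5′ end of the miRNA the differences, with the base of miR-202-3p first, were G7A and U8G.

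The hairpin of both arms is 80 nt long and lies at chr14:141207134-141207213 on the minus strand. It is printed with the 5p and the 3p arm in capitals, in that order.
MIR202 hairpin: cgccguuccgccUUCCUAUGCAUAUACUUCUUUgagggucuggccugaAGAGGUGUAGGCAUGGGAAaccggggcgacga
RefSeq and the deposited annotation gave this hairpin the same start, end and strand.

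Depth on miRNA entries differed between the libraries. Whole reads were recovered from the deposited values of 28 of 30 small RNA libraries. The testis libraries held 1294540 to 11815000 reads on miRNA entries, with 1294540, 2583020 and 2722670 in BMI and 2978140, 11815000 and 6893780 in DSE. The other recovered libraries held 13068700 to 21682600. The 10 Iso-seq libraries held 231413 to 458697 full-length reads, and the RNA-seq values, given as TPM, do not hold the depth of their libraries. The libraries labelled testis carried the mRNAs of spermatids at 25504 to 116790 summed TPM (transcript counts scaled for length and depth) over 7 genes, and the accessory glands had at most 7.31. The libraries labelled epididymis carried those of the epididymal epithelium (1765 to 30408 summed TPM over 5 genes), against at most 16.6 in the accessory glands. Markers of the vesicular, prostate and bulbourethral glands were not checked.

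miR-202-5p was abundant in every testis library and present at a trace in the other 4 glands. In BMI testis it reached 4993, 5127 and 6712 RPM in replicates 1 to 3, with a mean of 5611 RPM ± 956 (SD, n = 3). In DSE testis it reached 7457, 11254 and 8167 RPM, with a mean of 8959 ± 2019 (SD, n = 3). DSE testis replicate 2 was the highest library, and the 3 DSE libraries lay above the 3 BMI libraries. By its mean over the 6 testis libraries (7285 RPM ± 2315, SD, n = 6) miR-202-5p ranked 18 among 379 known pig miRNA names, between miR-22-3p at 7452 RPM ± 811 and miR-140-3p at 5575 RPM ± 1075. The range of miR-22-3p, 5935 to 8175 RPM, fell within that of miR-202-5p, so the order of those neighbours was within the spread of the libraries. In a single testis library its rank lay between 11 and 24.

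The 24 libraries of the other glands had a median of 0.755 RPM and ranged from 0.10 to 20.4 RPM. BMI epididymis had 1.92, 20.4 and 1.96 RPM in replicates 1 to 3, and DSE epididymis had 0.72, 0.33 and 0.74 RPM. Replicate 2 of BMI epididymis alone accounted for 287 of the 577 miR-202-5p reads recovered outside the testis. Bulbourethral gland ranged from 0.50 to 1.99 RPM around a median of 0.935, vesicular gland from 0.10 to 0.92 around 0.725, and prostate gland from 0.23 to 2.15 around 0.585. By median the order was testis, epididymis, bulbourethral gland, vesicular gland and prostate gland. The ranges of the last 4 overlapped, so these glands were not separated by the spread of their libraries, while the lowest testis library was 245 times the highest library elsewhere. Without BMI epididymis replicate 2, the highest library elsewhere was DSE prostate gland replicate 2 at 2.15 RPM, and the gap was 2322-fold. Some of these traces are few reads, down to 2 reads in DSE vesicular gland replicate 1, which is below the 3 reads taken as the lower limit of detection. Limits and intervals from reads cover counting error only.

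**Figure D1:**
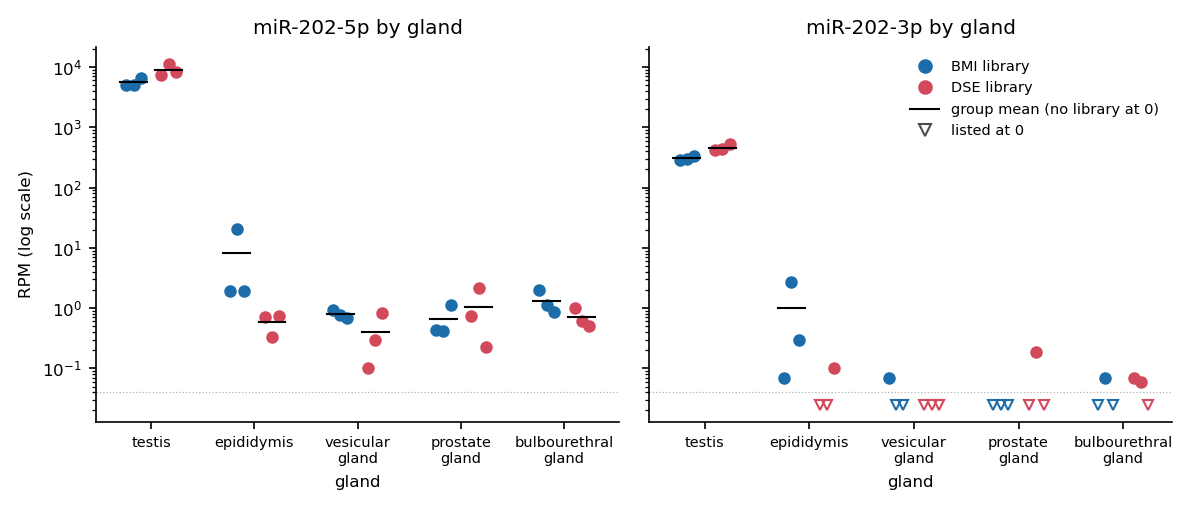
Abundance of miR-202-5p (left) and miR-202-3p (right) in each of the 30 small RNA libraries, in RPM on a log scale, by gland and breed. Points are libraries, black lines are group means where no library was at 0, and open triangles under the dotted line are libraries listed at 0. All 6 testis libraries lie at 4993 to 11254 RPM for the 5p arm and at 287 to 525 RPM for the 3p arm, and BMI epididymis replicate 2, at 20.4 and 2.70 RPM, is the highest library outside the testis.

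The 3p arm followed the same pattern at a lower level. It was at 287, 298 and 331 RPM in BMI testis and at 422, 430 and 525 RPM in DSE testis, and ranked 96 by its testis mean of 382 RPM ± 92.7 (SD, n = 6). Outside the testis 15 of 24 libraries were listed at 0. The highest was again BMI epididymis replicate 2, with 2.70 RPM or 38 reads, and the other 23 libraries did not exceed 0.30 RPM. Within libraries at 0, the 3 reads that a count of 0 allows correspond to 0.138 to 0.23 RPM.

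The 5p arm was the major arm in every testis library. The 3p arm made up 5.43%, 5.50% and 4.69% of the reads of both arms in BMI testis replicates 1 to 3, and 5.35%, 3.68% and 6.04% in DSE testis. The exact (Clopper-Pearson) 95% interval of the lowest library, DSE testis replicate 2, was 3.58 to 3.78%, below the intervals of the other testis libraries, of which the lowest started at 4.40%. The breeds overlapped. Among 89 precursors with both arms measured in the testis, the major arm held a median of 97.1% of the reads, and 51 had a larger major share than the 95.02% of miR-202. The 5p arm was the major one in 50 of the 89. In BMI epididymis replicate 2 the 3p share was 11.7%, with an exact 95% interval of 8.41 to 15.7%, above the upper limit of 6.23% in the highest testis library. This compares single libraries and not the glands, since other libraries outside the testis held at most 3 reads of the 3p arm where reads were recovered.

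Other miRNAs had a similar pattern over the 30 libraries. The 5 known miRNAs with the highest Pearson correlation to miR-202-5p on log2(RPM + 1) were miR-202-3p (r = 0.997), miR-107 (0.974), miR-2411 (0.970), miR-1839-5p (0.965) and miR-7857-3p (0.963). These correlations describe a split between testis and other libraries that all these miRNAs share, and the points also share their library and depth. miR-107 was at 659 to 1148 RPM in the testis and 16.2 to 92.5 RPM elsewhere. miR-7857-3p was at 3.10 to 11.08 RPM in the testis and at most 0.28 RPM elsewhere. By Spearman's rho, which weighs order within the glands as well, miR-505 (0.845), miR-202-3p (0.825) and miR-107 (0.825) led, and miR-2411 fell to place 144.

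The comparison of breeds asked whether the inbred line and the non-inbred pigs differed in miR-202. On log2(RPM + 1), miR-202-5p was 0.67 higher in DSE than in BMI testis (SE 0.25, limma adjusted p = 0.13, higher in 3 of 3 DSE libraries), a ratio of group means of 1.60. miR-202-3p was 0.58 higher (SE 0.20, limma adjusted p = 0.12), with a ratio of means of 1.503. Neither arm passed the threshold of 0.05, which 9.69% of the 485 miRNA entries tested in testis passed. The BMI and DSE libraries did not overlap for either arm. The breeds did not overlap for 35.9% of the entries, and all DSE libraries were above all BMI libraries for 15.7%. An exact two-sided permutation test over the 6 libraries gave p = 0.1 for each arm, the smallest value that 3 against 3 allows. The median difference of all entries was −0.11 on the log2 scale, so both arms were higher in DSE relative to it as well.

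The call depended on the test. DESeq2 on the recovered reads called both arms (log2 difference 0.78 and adjusted p = 0.037 for 5p, adjusted p = 0.012 for 3p), in a test that called 19.4% of the 485 entries. edgeR's quasi-likelihood test, which called 9.48%, gave adjusted p = 0.059 and 0.056. Without DSE testis replicate 2 the difference of miR-202-5p was 0.49 (limma adjusted p = 0.29) and that of miR-202-3p was 0.63 (adjusted p = 0.18), and no fit without 1 library called either arm. Every DSE testis library also held more reads on miRNA entries than every BMI testis library, while the paper lists similar totals of small RNA reads for both. The part of this in the difference was not tested. Over all 485 entries, 151 had a larger difference in size than miR-202-5p and 171 a larger one than miR-202-3p. Among entries at least as abundant as miR-202-5p in the testis, none of the other 20 had a larger difference in size, with values from −0.55 to 0.42. Some miRNAs are listed more than once among those 20. None of these 21 entries was called by limma.

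**Figure D2:**
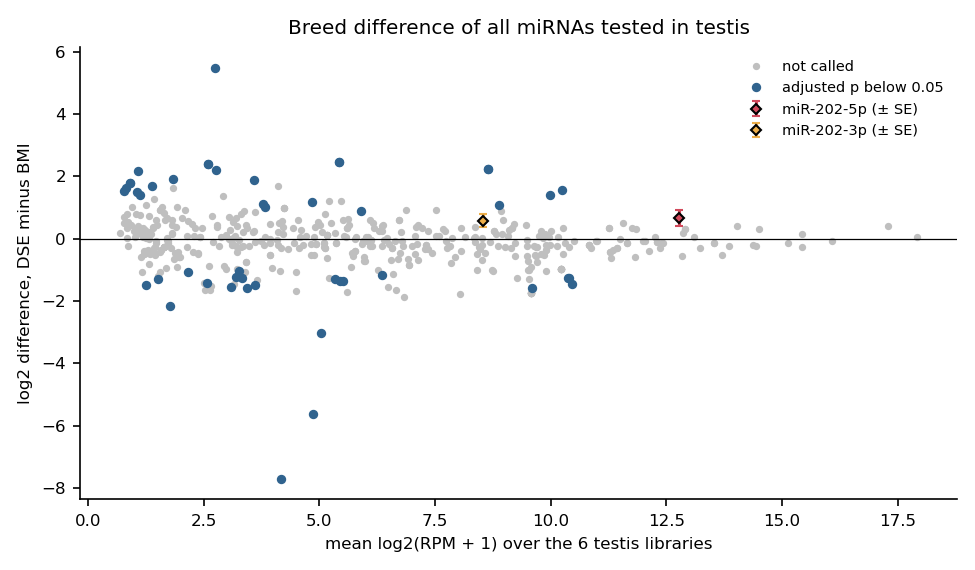
Log2 difference in abundance between DSE and BMI testis for the 485 miRNA entries tested, against their mean log2(RPM + 1) over the 6 testis libraries. Grey points did not pass the threshold, blue points passed an adjusted p of 0.05, and diamonds with bars (± SE) are the arms of miR-202, at 0.67 for 5p and 0.58 for 3p. At the level of miR-202-5p and above, the remaining points lie between −0.55 and 0.42.

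The ratio of the arms was compared between the breeds as well. The log2 ratio of 5p to 3p was 0.08 higher in DSE testis (SE 0.26, limma adjusted p = 0.87), and 1.12% of the 89 precursors were called. Without DSE testis replicate 2, the library with the lowest 3p share, that difference was −0.14 (adjusted p = 0.85).

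In the other glands the breed difference of miR-202-5p rested on traces. In epididymis all BMI libraries were above all DSE libraries, as for 24% of the entries tested there, and 24.3% did not overlap in either direction. The difference of DSE from BMI on log2(RPM + 1) was −1.85 (SE 0.76, limma adjusted p = 0.31, where 0.517% of 387 entries passed). A fit of all 30 libraries together, which called 11.6% of entries for this contrast, gave adjusted p = 0.018 for the same difference. Leaving out BMI epididymis replicate 2 brought the difference to −0.89, without a test, because too few libraries then reached 1 RPM. In bulbourethral gland the difference was −0.42 (SE 0.31, adjusted p = 0.34, where 0.552% of 362 entries passed), the breeds overlapped, and without BMI bulbourethral gland replicate 1 the value was −0.22. It was −0.77 with a pseudocount of 0.1, −0.19 with edgeR and −0.12 with DESeq2, none of them called. The median difference of all entries was −0.68 in epididymis and −0.70 in bulbourethral gland, so relative to it miR-202-5p was lower in DSE in the former and higher in the latter. In vesicular and prostate gland miR-202-5p was below the filter of 1 RPM in 3 libraries. Its difference there was −0.38 and 0.22, without a test, and the latter turned to −0.15 without DSE prostate gland replicate 2.

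Whether the breed difference in testis departed from that in the other glands was tested as an interaction. The difference in testis exceeded the mean difference of the other 4 glands by 1.27 on the log2 scale for miR-202-5p (SE 0.54, limma adjusted p = 0.16), and 10.6% of 526 entries passed. The median of all entries was 0.33. Without BMI epididymis replicate 2 it was 1.03 with adjusted p = 0.042, past the threshold as for 11% of entries in that fit. For miR-202-3p the interaction was 0.75, and without that library it was 0.61. These values are given without a test, because outside the testis only that library reached 1 RPM and the entry passed the filter through the testis.

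The long-read libraries held a transcript across the miR-202 hairpin that the reference annotation lacks. This isoform, PB.6935.1 of the gene named novelGene_1413, lies at chr14:141206638-141207473 on the minus strand and has 2 exons of 89 and 310 nt. The hairpin falls in its intron of 437 nt, 260 to 339 nt after the isoform start, and the intron opens with GT and closes with AG, the usual splice signals. The authors' classification put it among 4119 intergenic isoforms, predicted a coding region of 115 amino acids and marked its junction as a possible product of template switching, a mark that 20.9% of intergenic isoforms carried. A polyadenylation signal, AATAAA, was listed at −24 from its end. Its 10 full-length reads came from the testis only, 3 from BMI and 7 from DSE, and the other 8 Iso-seq libraries had 0 reads, which allows up to 3 reads in a library.

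**Figure D3:**
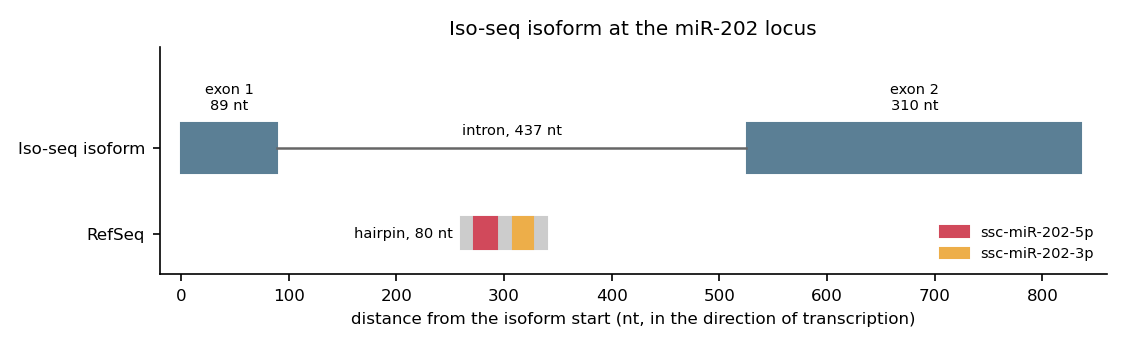
Map of the miR-202 locus in the direction of transcription, with distance from the isoform start in nt. The upper row is the Iso-seq isoform with its exons as boxes and the intron as a line, and the lower row is the RefSeq hairpin with the 5p arm in red and the 3p arm in yellow. The hairpin of 80 nt lies inside the intron of 437 nt, 260 to 339 nt from the isoform start.

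The 300 bases around the isoform start are shown because this is the 5′ end of the transcript that spans the miRNA. The window runs from 250 bases before to 50 bases after that start, at chr14:141207424-141207723 on the minus strand of Sscrofa11.1, and 71.7% of its bases are G or C. Capitals mark its only match to the searched motifs, a GATA motif at position −235 from the start.
isoform start window: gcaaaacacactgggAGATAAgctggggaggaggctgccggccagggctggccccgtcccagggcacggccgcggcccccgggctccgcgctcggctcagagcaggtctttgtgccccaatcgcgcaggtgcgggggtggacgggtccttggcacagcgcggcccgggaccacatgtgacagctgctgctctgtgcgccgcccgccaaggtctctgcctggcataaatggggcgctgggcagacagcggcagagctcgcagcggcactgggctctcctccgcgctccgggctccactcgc
The motifs were AGATAA for GATA factors, AACAAT for SOX factors, CAAGGTCA and its shorter form AAGGTCA for the steroidogenic factor NR5A1, and TATAAA, each on both strands. The shorter NR5A1 motif lies within the longer one. Windows of the same length were taken at the gene starts of the deposited annotation, merged from Iso-seq and Ensembl. Of these 41253 windows, 13.0% held AGATAA, 12.9% AACAAT, 1.43% CAAGGTCA, 4.35% AAGGTCA and 16.7% TATAAA. A match describes letters and not a binding site.

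In RNA-seq the isoform was likewise high in the testis. It was at 719, 636 and 908 TPM in BMI testis replicates 1 to 3 and at 1434, 2655 and 1518 TPM in DSE testis. In a testis library it ranked between 29 and 142 among all transcripts. Outside the testis 20 of 24 libraries were listed at 0, and the others were BMI epididymis replicate 2 at 5.52 TPM, DSE epididymis replicate 3 at 0.461 TPM, DSE prostate gland replicate 2 at 0.398 TPM and BMI prostate gland replicate 2 at 0.278 TPM. DSE testis replicate 2 was thus the highest testis library for both the isoform and miR-202-5p, and BMI epididymis replicate 2 was the highest library outside the testis for both. The labels do not state that small RNA and RNA-seq libraries of the same name come from the same boar.

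All 6 testis libraries lay above the 24 others. No test between glands is given, because the isoform reached 1 TPM in only 1 library outside the testis and so passed the filter through the testis. Between the breeds the isoform was 1.27 higher in DSE testis on log2(TPM + 1) (SE 0.35, limma adjusted p = 0.24, where 0.692% of 38994 transcripts passed), a ratio of means of 2.48. The breeds did not overlap, with all DSE libraries above all BMI libraries as for 6.28% of transcripts, and 21.1% did not overlap in either direction. The corresponding ratio of miR-202-5p in RPM was 1.60, and the 2 scales were not tested against each other. Without DSE testis replicate 2 the isoform's difference was 0.98 (adjusted p = 0.22).

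The annotated genes on either side of the locus were also expressed in the testis. The gene at the place of RefSeq UTF1, a chromatin factor of undifferentiated germ cells, lies 13725 nt from the hairpin on the other strand. It was at 4.69, 4.47 and 5.81 TPM in BMI testis and 2.95, 0.907 and 3.68 TPM in DSE testis, and was lowest in DSE testis replicate 2, where the isoform was highest. In the other glands it was at most 0.655 TPM, so it too passed the filter through the testis and is given without a test between glands. Its breed difference was −0.86 on log2(TPM + 1) (SE 0.36, limma adjusted p = 0.35), where 0.582% of 16319 genes were called, and −0.47 without DSE testis replicate 2. It was called in 1 fit of all 30 libraries (adjusted p = 0.019), as were 7.07% of genes.

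ADAM8, a membrane metalloprotease, lies 13964 nt from the hairpin on the other side and on the same strand as the isoform. It was at 1.28, 1.02 and 1.64 TPM in BMI testis and at 5.05, 19.9 and 7.52 TPM in DSE testis, with no overlap of the breeds and DSE testis replicate 2 again the highest. The breeds did not overlap for 24.8% of genes, and all DSE libraries were above all BMI libraries for 7.7%. Its breed difference was 2.16 (SE 0.44, limma adjusted p = 0.10) and became a call without DSE testis replicate 2 (1.64, adjusted p = 0.023), with the replicate number as a block (adjusted p = 0.030) and in 1 fit of all 30 libraries (adjusted p = 0.0010), fits that called 1.57%, 1.39% and 7.07% of genes. It rose in the testis by 1.59 (SE 0.23, adjusted p = 8.3e-07, where 47.7% of 19796 genes were called higher), with at most 3.19 TPM in the other glands.

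The RNA-seq library of DSE testis replicate 2, which shares its name with the small RNA library richest in miR-202-5p, stood apart in its cell type markers. In bulk tissue more cells of a type, more RNA per cell and a smaller share of other RNA in the total cannot be told apart. Of the Sertoli cell list, 9 genes reached 1 TPM in 3 testis libraries, and DSE testis replicate 2 was the highest testis library for 9 of 9. The list summed to 714 TPM there and to 254 to 435 TPM in the other testis libraries. It was also the highest for 7 of 7 genes of the Leydig cell list (63760 summed TPM against 18672 to 32510) and 5 of 5 of the peritubular and smooth muscle list (287 against 136 to 191). Of the macrophage list it was the highest for 3 of 3 genes (16.5 summed TPM against 5.63 to 9.88), and of the endothelial list for 2 of 3 (46.5 against 20.6 to 39.6), so the summed markers of each listed somatic cell type of the testis were highest there.

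The germ cell markers went the other way in that library. It was the lowest testis library for 8 of 8 spermatocyte genes (119 summed TPM against 257 to 409) and 7 of 7 spermatid genes (25504 against 76144 to 116790). Over all 16319 genes it was the highest library for 36.8% and the lowest for 40.5%, so it stood apart well beyond these lists. For the spermatogonia list it was the highest for 2 and the lowest for 3 of 8 genes. Among the remaining testis libraries, the Sertoli sum was 322 and 435 TPM in DSE replicates 1 and 3 and 254, 259 and 270 TPM in BMI. Without INHA, the alpha subunit of the Sertoli hormone inhibin, DSE replicate 1 summed to 204 TPM, below the BMI libraries at 205, 220 and 210 TPM, and it was the lowest testis library for 4 of the 9 Sertoli genes. The part of cell composition in the breed difference of miR-202 was not tested.

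**Figure D4:**
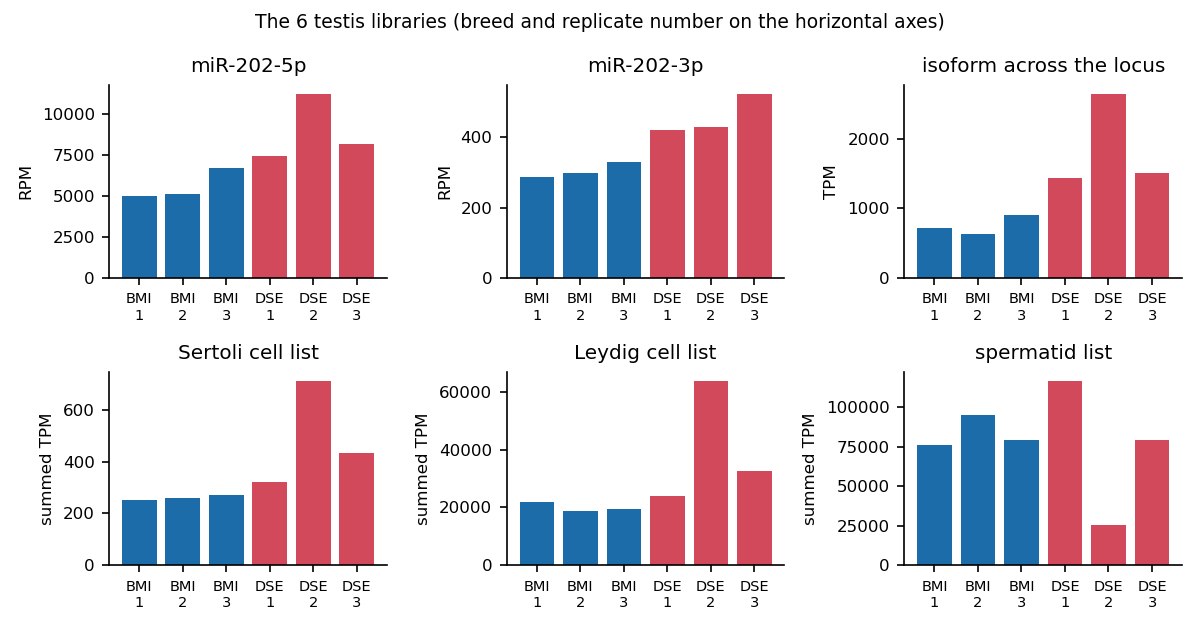
The 6 testis libraries, BMI in blue and DSE in red, with breed and replicate number on each horizontal axis and bars from 0. The upper panels show miR-202-5p and miR-202-3p in RPM and the isoform across the locus in TPM, and the lower panels show the summed TPM of the Sertoli cell, Leydig cell and spermatid lists. DSE replicate 2 is the highest bar for miR-202-5p (11254 RPM), the isoform (2655 TPM), the Sertoli list (714 TPM) and the Leydig list (63760 TPM), and the lowest for the spermatid list (25504 TPM).

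Between the breeds, none of the 56 listed genes tested in the testis passed the threshold with limma, where 0.582% of 16319 genes passed, and 10 of the 56 had an unadjusted p below 0.05, as did 13.5% of all genes tested. The median log2 difference was 0.47 for the 9 Sertoli genes and 0.64 for the 7 Leydig genes, all 16 of them above 0, and −0.85 for the 8 spermatocyte genes and −0.59 for the 7 spermatid genes, all 15 below 0. The medians moved by over 1.5 times without DSE testis replicate 2. They were then 0.16 over 8 Sertoli genes still tested, 0.17 for Leydig, −0.45 for spermatocyte and 0.14 for spermatid genes, with 7 of 8 Sertoli and 5 of 7 Leydig genes still above 0, 7 of 8 spermatocyte genes still below 0, and 4 of 7 spermatid genes now above 0. CLDN11, the tight junction protein of Sertoli cells, was the most abundant Sertoli gene and was at 122, 132 and 130 TPM in BMI and 129, 377 and 204 TPM in DSE testis (log2 difference 0.75, SE 0.38, adjusted p = 0.42, and 0.34 without DSE testis replicate 2). INHA was singled out after its values were seen. It was at 48.4, 39.2 and 59.7 TPM in BMI and 118, 169 and 118 TPM in DSE and differed by 1.44 (SE 0.27, adjusted p = 0.076). All DSE libraries were above all BMI libraries, as for 7.7% of genes. In 1 fit of all 30 libraries INHA was called (limma adjusted p = 2.2e-05), as were 7.07% of genes. Without DSE testis replicate 2 it differed by 1.27 and was called (adjusted p = 0.044) in a fit that called 1.57% of genes, while the other 7 Sertoli genes tested differed by −0.0045 to 0.34 and were not called. The other listed gene called in that fit was UCHL1, a ubiquitin hydrolase of spermatogonia (1.26, adjusted p = 0.024).

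The leading genes of the other lists were not called in the fits of the 6 testis libraries. In 1 fit of all 30 libraries INSL3 and SYCP3 were called (adjusted p = 0.029 for each), as were 10 listed genes in all and 7.07% of all genes in that fit. INSL3, the Leydig cell hormone of testis descent, differed by 1.09 (SE 0.35, adjusted p = 0.26). SYCP3, a component of the meiotic chromosome axis, differed by −0.87 (SE 0.42, adjusted p = 0.40), PRM1, the protamine that packs sperm DNA, by −0.40 (SE 0.49, adjusted p = 0.70) and ETV5, a factor of spermatogonia and Sertoli cells, by −0.20 (SE 0.34, adjusted p = 0.78). TAGLN of smooth muscle differed by 0.48, PECAM1 of endothelium by −0.48, CSF1R of macrophages by 0.65 and ADAM7 of the epididymal epithelium by −0.69, with adjusted p from 0.38 to 0.53. The differences moved without DSE testis replicate 2, and those of PRM1 and ETV5 changed sign. INSL3 then differed by 0.73, SYCP3 by −0.38, PRM1 by 0.20, ETV5 by 0.10, TAGLN by 0.12, PECAM1 by −0.76, CSF1R by 0.39 and ADAM7 by −0.36.

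Against the other glands, 74.8% of all genes tested passed, 47.7% higher and 27.1% lower in testis. Many of these genes entered the test through the testis alone or the other glands alone, so only those at 1 TPM or more in 3 testis libraries and in 3 libraries outside the testis are counted here. The shares of all genes under that limit were not counted, so the shares above are no background for the counts below. Of these, 2 of 2 spermatocyte and 5 of 5 spermatid genes rose in the testis, 5 of 6 Sertoli genes rose and 1 fell, 2 of 5 spermatogonia genes rose and 1 fell, and none of the Leydig genes qualified. The 5 peritubular and smooth muscle genes and the 3 macrophage genes fell, as did 2 of 3 endothelial genes. The 1 epididymis gene that qualified, ADAM7, was not called (0.31, adjusted p = 0.27) but was called with a pseudocount of 0.1 (2.21, adjusted p = 7.8e-06), as were 75% of genes in that fit. AMH, the Sertoli hormone that removes the Müllerian duct (0.44, adjusted p = 0.016), lost its call with size factors (adjusted p = 0.098) and without BMI testis replicate 2 or DSE testis replicate 2 or 3 (adjusted p from 0.051 to 0.077). ZBTB16 of spermatogonia (−0.78, adjusted p = 0.095) and CDH5 of endothelium (−0.58, adjusted p = 0.10) were not called, but were with size factors (−1.01, adjusted p = 0.0072, and −0.81, adjusted p = 0.0056), as were 78.6% of genes in that fit. ZBTB16 was also called without any 1 of 3 libraries of other glands and CDH5 without DSE testis replicate 2 (adjusted p of at least 0.038 and of 0.049). The call of PECAM1, an endothelial gene (−0.88, adjusted p = 0.032), was lost without any filter (adjusted p = 0.061) and without 4 of the testis libraries in turn (adjusted p up to 0.091).

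The transcription factors of Sertoli cells did not all share the distribution of miR-202. SOX9, the factor placed upstream of miR-202 in the mouse, was at 14.1, 17.6 and 12.0 TPM in BMI and 13.0, 37.3 and 21.4 TPM in DSE testis, and fell in the testis by 1.05 against the other glands (SE 0.28, adjusted p = 0.0016), where it reached a median of 56.1 TPM. SOX8 was at most 0.404 TPM in the testis and at a median of 3.24 TPM in the other glands, and is given without a test, since it passed the filter through the other glands. WT1 rose in the testis by 3.19 (SE 0.19, adjusted p = 6.9e-14). GATA4, NR5A1 and DMRT1 passed the filter through the testis and are given without a test between glands. They were at 27.1 to 53.7, 47.1 to 113 and 27.8 to 41.2 TPM in the testis and at most 0.183, 0.0626 and 1.22 TPM in the other 24 libraries. Of the 6 factors, DMRT1 was the one not highest in DSE testis replicate 2 among those at 1 TPM or more. None of the 5 factors tested between the breeds was called, with differences from −0.32 for DMRT1 to 0.57 for SOX9, the latter 0.20 without DSE testis replicate 2.

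The RNA-seq library of BMI epididymis replicate 2, named like the small RNA library with the highest trace of miR-202, also held spermatid transcripts. All 7 spermatid genes were higher there than in any other epididymis library, with a sum of 1038 TPM against 1.52 to 253 TPM. The 8 spermatocyte genes summed to 6.52 TPM there and to 4.11 to 11.7 TPM in the others. PRM1 was at 744 TPM there and at most 112 TPM in the others. Relative to the BMI testis mean, the spermatid genes stood at 0.542 to 1.35%, the isoform across the locus was at 5.52 TPM against a testis mean of 754 TPM, and miR-202-5p was at 20.4 RPM against 5611 RPM. The 7 Leydig genes summed to 4.11 TPM there, against 0.303 to 2.73 TPM in the other epididymis libraries. The Sertoli list summed to 73.4 TPM, within the 34.6 to 76.8 TPM of the other epididymis libraries, with CLDN11 at 32.1, SOX9 at 27.4, WT1 at 4.71 and INHBB at 4.55 TPM. Of its genes, GATA4 was at 0.0639 TPM, FSHR at 0 and INHA at 1.33 TPM, which is 2.71% of the BMI testis mean and the highest of the epididymis libraries. It also had the highest epididymal epithelium sum, 30408 TPM against 1765 to 5003 TPM, with RNASE10, singled out after its values were seen, at 10294 TPM against at most 20.1 TPM in the other epididymis libraries. GPX5 was at 8449 TPM against at most 928, and LCN6 at 6126 TPM against at most 290. CRISP1 and ADAM7 differed less, at 2759 and 2780 TPM against at most 2659 and 2315. The part of RNA from testis cells in this trace was not tested.

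Reported mRNA targets of miR-202 in Sertoli and germ cells were looked at last, without a test of targeting. The site of an arm is the reverse complement of its seed, CAUAGGA for 5p and ACACCUC for 3p, and it is called an 8mer where an A follows. RBFOX2, a splicing factor, held a single 8mer for each arm in its RefSeq 3′UTR of 5575 nt. They are shown with 15 bases before the site and the 8mer in capitals, and lie at chr5:11900969-11900991 and chr5:11900477-11900499 on the plus strand.
RBFOX2 site for miR-202-5p: ucugagcuccaaagcCAUAGGAA
RBFOX2 site for miR-202-3p: gacuguggauaauaaACACCUCA
Of 18588 genes with a 3′UTR, 2.87% held an 8mer for 5p, 2.23% held one for 3p and 29 genes held both. Among the 828 genes with a 3′UTR at least as long as that of RBFOX2, 17.8% held an 8mer for 5p and 2.54% held both. LRP6, a Wnt co-receptor, and CCND1, cyclin D1, held no such match in 3′UTRs of 4435 and 3147 nt, and no 3′UTR was found for CPEB1, a regulator of polyadenylation, under that symbol.

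None of the 4 target genes was called between the breeds. RBFOX2 was at 23.3, 21.3 and 20.7 TPM in BMI and 25.4, 31.3 and 31.4 TPM in DSE testis, all DSE libraries above all BMI libraries (log2 difference 0.41, SE 0.22, limma adjusted p = 0.43), the same direction as miR-202. As given for ADAM8, 7.7% of genes had all DSE above all BMI libraries. CPEB1 was at 7.05, 7.93 and 9.56 TPM in BMI and 4.58, 4.32 and 8.82 TPM in DSE testis (−0.46, SE 0.30, adjusted p = 0.49). LRP6 and CCND1 differed by 0.17 and −0.13 (adjusted p = 0.86 and 0.82). Against the other glands CCND1 fell in the testis by 2.40 (adjusted p = 9e-11), and RBFOX2 and LRP6 differed by −0.02 and −0.44 without a call (adjusted p = 0.95 and 0.21). LRP6 was called with size factors (−0.63, adjusted p = 0.020), as were 78.6% of genes. CPEB1 passed the filter through the testis, with 2 libraries outside it at 1 TPM or more, and is given without a test between glands.

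Genes with an 8mer were set beside all genes with a 3′UTR. Between the breeds, the 343 tested genes with an 8mer for 5p had a median log2 difference of −0.08, the 274 with one for 3p had −0.06, and all 11080 tested genes with a 3′UTR had −0.05. Of the 5p genes 1 was called higher and 0 lower, of the 3p genes 0 and 0, and of all 11080 genes 12 and 14. Against the other glands the medians were 0.30, 0.35 and 0.26, and the 3′UTRs of genes with a match were longer, with medians of 3386 and 3120 nt against 1081 nt.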

How the data were processed

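Small RNA abundance was deposited by the authors as RPM over all listed miRNA entries, with 2 decimals, after adapter trimming and quantification with miRDeep2. RNA-seq abundance was deposited by the authors as TPM from Salmon 1.9.0 on an annotation merged from Iso-seq and Ensembl. Iso-seq values were deposited as counts of full-length reads per isoform, not normalized. Isoform lengths and positions were used as deposited. The submitters' notes name STAR 2.7.10a, GSNAP and Bowtie 1.3.1, and susScr11 (Sscrofa11.1). For RNA-seq the labels speak of rRNA depletion and the published methods of poly-T beads. Of 307 RefSeq hairpins, 233 had the same position in the deposited annotation.

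RPM and TPM were tested as log2(value + 1) with limma 3.58.1, without a fold threshold, on features of at least 1 in at least 3 libraries of the fit. Breed fits used the 6 libraries of a gland, and gland and interaction fits used 30 libraries in 10 groups. P-values were adjusted by Benjamini-Hochberg over all features of a fit and called below 0.05. They measure the spread between libraries of a group, which nothing in the labels ties to separate boars. Gene TPM was the sum over transcripts. A log2 difference on this scale understates changes of low features. Genes above an antisense partner cannot be separated without strand.

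Whole reads were recovered from the RPM steps in the 28 libraries where at least 95% of values up to 20 reads lay within 0.1 read of a whole read. The share was 96.8% or more there, and 94.9% and 93.3% in BMI epididymis replicate 3 and DSE vesicular gland replicate 2, which were left out although at least 99.7% of their values up to 100 reads were whole within the 0.0051 RPM that rounding allows. The reads were tested with edgeR 4.0.16, which called 46 of 485 entries in testis, and DESeq2 1.42.0. For testis libraries of the same number, deviations from the breed mean correlated at r = 0.22, 0.13 and 0.10 in small RNA and at −0.22, −0.03 and 0.16 in RNA-seq. Libraries of different number ranged from −0.14 to 0.015 in small RNA and from −0.19 to 0.24 in RNA-seq. These correlations were not tested. The pairing comes from the replicate numbers alone. The scripts were tested on simulated data. Exact permutation and binomial intervals used scipy 1.17.1, and sequences were read with pysam 0.24.0.

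The members and gene lists were chosen with earlier results of these data known. Genes were named by rule: both arms, the 5 most similar known miRNAs, the neighbours in level, the transcript and genes at the locus, all listed targets and Sertoli factors, and of each list the genes called between breeds or else the most abundant in testis. The lists hold 71 genes typed from general knowledge, of which 67 were found by symbol. Predicted miRNAs carry no position in their names and were not assigned to the locus. Alternatives were another pseudocount and filter, size factors, leaving out each library, a replicate block, 1 joint fit, count tests and scaling to known miRNAs. The joint fit for RNA-seq was chosen after seeing the data.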

Additional observations from a re-analysis of the deposited data

Results flagged for a closer look

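Within each gland, the 6 libraries were examined for a value far from the rest, for miR-202-5p, miR-202-3p and the isoform across the locus. In 13 sets of 6 libraries, 5 values exceeded Dixon's 95% critical value. Chance gives about 1 in 20 where values are not tied, and the rate does not hold for sets with libraries tied at 0. BMI epididymis replicate 2 was far above the other epididymis libraries for miR-202-5p (20.4 RPM), miR-202-3p (2.7 RPM) and the isoform (5.52 TPM), so 3 of the 5 came from 1 library. The markers of that library are given with the report of its trace. The other 2 exceed it by construction, as the only value above 0 in their set, miR-202-3p at 0.07 RPM, or 1 read, in BMI vesicular gland replicate 1 and at 0.19 RPM, or 3 reads, in DSE prostate gland replicate 2.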

How the results depend on the processing

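The 245-fold gap between the lowest testis library and the highest library elsewhere rests on RPM and on BMI epididymis replicate 2, without which it was 2322-fold. With median-of-ratios size factors the testis mean of miR-202-5p was 3012 and the gap 132-fold, and leaving out a library gave 6491 to 7743 RPM. The testis breed difference of miR-202-5p was called by DESeq2 (0.78, adjusted p = 0.037), and its adjusted p ranged from 0.037 to 0.49 over 15 alternatives. The epididymis difference, given without a test, was −1.85 and −0.89 without BMI epididymis replicate 2. The interaction ranged from 1.03 to 1.41 over fits without 1 library. The arm ratio ranged from −0.14 (without DSE testis replicate 2) to 0.24 over such fits, none called.

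With the replicate number as a block, the breed difference of miR-202-5p in testis stayed at 0.67 (adjusted p = 0.17) and that of the isoform at 1.27 (adjusted p = 0.40). The block changed the call of ADAM8 as given above and no other call of a named miRNA, transcript or gene. It gave 109 called miRNA entries in bulbourethral gland, 0 arm ratios, 63 transcripts and 227 genes.

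Counts of called features moved most, and fits with another filter or scaling also tested another number of features. For miRNA in testis (47, 9.69%) they were 29 with a pseudocount of 0.1 (5.98%), 28 over known miRNAs (7.95%), 94 with DESeq2 (19.4%) and 20 to 30 without 1 library. In epididymis (2) they were 61 in 1 joint fit, 0 over known miRNAs and 0 to 4 without 1 library. In bulbourethral gland (2) they were 52 without a filter, 39 in the joint fit, 0 over known miRNAs, 4 with DESeq2 and 0 to 104 without 1 library. The interaction (56, 10.6%) gave 20 with a pseudocount of 0.1 (3.8%), 89 without a filter (12%) and 21 with a minimum of 10 (5.9%). It gave 20 with size factors (4.05%), 19 over known miRNAs (5.12%) and 30 to 60 without 1 library. Arm ratios (1) gave 0 with a pseudocount of 0.1 and 0 to 1 without 1 library. Transcripts between glands (38999, 60.3% of 64661 tested) fell to 14163 with a minimum of 10. That was 74.8% of the 18922 then tested, so the share called rose. Transcripts between breeds (270, 0.692%) gave 87 with that minimum (0.729%), 4491 in the joint fit (6.95%) and 0 to 231 without 1 library. Genes between breeds (95, 0.582%) gave 27 without a filter (0.0879%), 31 with the minimum (0.334%) and 1400 in the joint fit (7.07%). They gave 3 to 253 without 1 library, the last without DSE testis replicate 2. Listed genes between breeds (0) gave 10 in the joint fit and 0 to 2 without 1 library, the 2 without DSE testis replicate 2. The cause of these shifts was not tested.

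Single genes changed sign without 1 library. Between breeds CCND1 ranged from −0.24 to 0.023 and was 0.0037 without DSE testis replicate 1, LRP6 was −0.09 without BMI testis replicate 3 and −0.17 without DSE testis replicate 2, and ETV5 and PRM1 were 0.10 and 0.20 without the latter. LRP6 reached 0.62, ETV5 −0.49 and PRM1 −0.79 in other fits. Between glands RBFOX2 ranged from −0.092 to 0.052. None of these was called. Count tests in epididymis and vesicular gland and for the interaction were not run, because 2 libraries were below the minimum share of whole reads. Depth limits the traces, where 3 reads are 0.138 to 0.23 RPM.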
